A study of Homo sapiens with 9 samples.

Results

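The structural maintenance of chromosomes (SMC) proteins and the cohesin subunits were followed as a gene family in HEK293 cells with reduced SmcHD1. The family was taken as 10 genes, SMCHD1 itself, the canonical SMC genes SMC1A, SMC2, SMC3, SMC4, SMC5 and SMC6, and the cohesin subunits RAD21, STAG1 and STAG2, of 35196 genes or unnamed transcripts on the array. A probe was assigned to a gene through the RefSeq accession in the scanner files, and 18 probes matched. SMCHD1, SMC1A and STAG2 had 3 probes each, SMC2 and SMC4 had 2, and the other 5 genes had 1. All 18 probes were well above background on all 9 arrays and were tested.

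HEK293 is a line derived from human embryonic kidney. Stable cell populations were made by retroviral infection and puromycin selection, with no other treatment. The virus carried a hairpin against SmcHD1, either shRNA 3 (group KD3) or shRNA 4 (group KD4), or the NC5 control hairpin (group CTL). The vector also carries GFP, so all groups share infection, selection and GFP. Each group was measured on 3 arrays, called biological triplicates in the methods. Nothing states that they came from separate infections, so the p-values measure the spread between these samples, which may be technical. In bulk RNA, fewer cells with a transcript and less of it per cell cannot be told apart.

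SMC proteins are long coiled-coil ATPases that pair through a hinge domain and hold or extrude DNA. SMC1A and SMC3 form the cohesin ring, closed by RAD21 and bound by STAG1 or STAG2. SMC2 and SMC4 form the core of condensin, and SMC5 and SMC6 that of a complex for DNA repair. SmcHD1 shares only the hinge with them, carries a GHKL-type ATPase domain, and is known for its role in silencing the inactive X chromosome.

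The hairpins are shown because they define the 3 groups. They are printed 5′ to 3′ as inserted in the vector, and capitals mark the 3′ arm that follows the loop ttcaagaga.

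KD3: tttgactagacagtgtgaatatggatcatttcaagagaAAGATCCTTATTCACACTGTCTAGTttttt
KD4: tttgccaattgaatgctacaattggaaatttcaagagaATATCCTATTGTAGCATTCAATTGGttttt
CTL: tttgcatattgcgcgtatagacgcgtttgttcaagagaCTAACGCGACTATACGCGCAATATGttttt

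Each hairpin was 68 bases long, and in each 23 of the 25 bases of the 3′ arm were complementary to the 5′ arm. Matches of these arms to other transcripts were not analysed here.

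Median processed signals per array ranged from 117.7 to 181.7, and 75.1% to 79.8% of the probes were well above background. Arrays of a group correlated with a Pearson r of at least 0.99, and no spot was saturated. The arrays lay on 2 slides, each with arrays of all groups. All 5 HEK293 markers were detected, and 3 of them were called lower in both knock-downs, which is 60% against 8.5% of all genes. On the log2 scale PAX2 differed from CTL by -2.41 in KD3 and -2.65 in KD4 on its brightest probe, while its other probe overlapped between groups. NEFM differed by -1.21 and -1.24. Its signal was low, with log2 means of 4.33 in KD3, 4.3 in KD4 and 5.54 in CTL. With normexp background correction NEFM differed by only -0.43 and -0.49. NEFL differed by -0.33 and -0.41, and its KD3 call held in 15 of 21 alternative settings. The part of these markers in the values of the SMC genes was not tested. Of 5 markers of other cell types, ALB, PECAM1 and GFAP were not tested because they were not well above background on all arrays of any group. COL1A1 was detected. PTPRC was detected on its brightest probe, whereas some of its other probes were not well above background on any array. COL1A1 was lower in KD3 by -0.37 (limma adjusted p = 0.0164) and gave 0.02 in KD4, and PTPRC was not called. With 3 arrays in each group, precision is limited by their number. Differences are given as log2 of knock-down over CTL, after quantile normalization. A gene was called when the Benjamini-Hochberg adjusted p of its brightest probe was under 0.05 in a limma fit of all 9 arrays and all tested probes.

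SMCHD1, the targeted gene on chromosome 18, was lower on every knock-down array than on every CTL array, and its signal fell to 51% of CTL in KD3 and 34.6% in KD4. On its brightest probe, A_24_P400997, the normalized log2 signal was 11.2, 11.37 and 11.22 in CTL. It was 10.4, 10.16 and 10.32 in KD3. It was 9.63, 9.8 and 9.77 in KD4. The 3 groups did not overlap. The log2 difference was -0.97 in KD3 (SE 0.0897, 95% confidence interval -1.18 to -0.77, limma adjusted p = 0.000214) and -1.53 in KD4 (SE 0.0897, interval -1.74 to -1.33, limma adjusted p = 1.81e-05). Within the slides the difference was -1.14 and -0.84 in KD3 and -1.51 and -1.57 in KD4. Slide 1 held 1 KD3, 2 KD4 and 2 CTL arrays, and slide 2 held 2 KD3, 1 KD4 and 1 CTL arrays.

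KD4 lay below KD3 by -0.56 on the log2 scale (interval -0.76 to -0.36, limma adjusted p = 0.0195). This call was lost when KD3 replicate 1 or 3, or any KD4 replicate, was left out, with differences of -0.51 to -0.59 and adjusted p values of 0.0571 to 0.0697. The other probes gave the same order of groups. For A_23_P38723 the difference was -1.03 in KD3 and -1.54 in KD4. For A_24_P82630 it was -0.97 and -1.51, and its KD4 to KD3 difference of -0.54 had a limma adjusted p of 0.0902. A test of whether probes of a gene moved apart (limma diffSplice, added after the values were seen) gave adjusted p = 0.977 for SMCHD1 in KD3 and 0.992 in KD4.

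**Figure D1:**
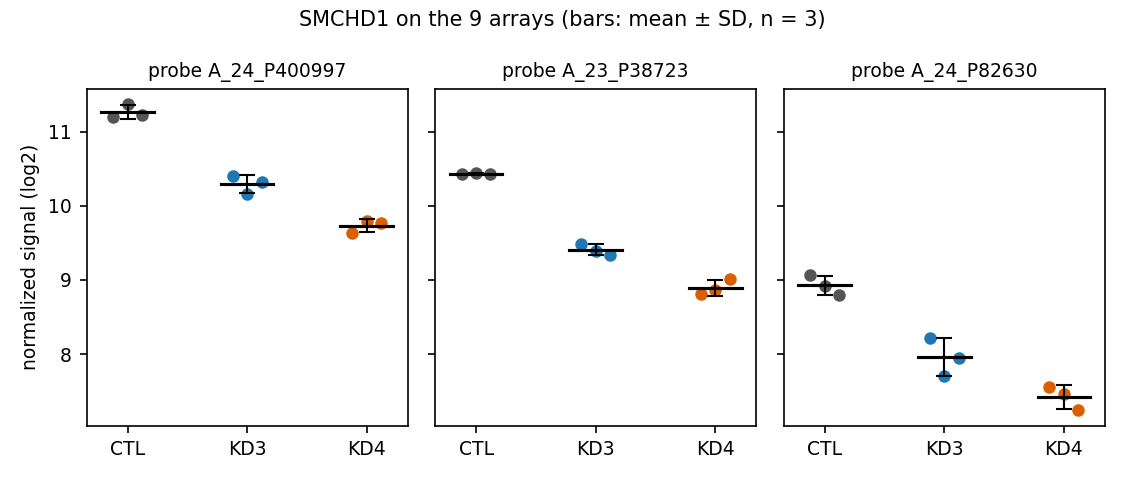
Normalized log2 signal of the 3 SMCHD1 probes on each of the 9 arrays, by group, with points for arrays and bars for the mean ± SD (n = 3). On each probe the CTL arrays lie above all KD3 arrays, and the KD3 arrays above all KD4 arrays.

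In absolute size, the 9 relatives of SMCHD1 differed from CTL about as much as other genes did, while their median in KD4 was lower. Their median absolute difference was 0.163 in KD3 and 0.228 in KD4 on the log2 scale, beside 0.175 and 0.217 over all genes tested. No relative differed from CTL by more than 0.37 on the log2 scale on any of its 15 probes, a 1.29-fold difference, and 0 of 9 were called with at least 1.8-fold, where 3.35% of all tested genes were called in KD3 and 4.59% in KD4. Without the fold threshold 2 of 9 relatives were called in KD3 (1 higher, 1 lower), which is 22.2% against 19.9% of the 26862 genes tested (9.47% higher and 10.5% lower). In KD4, 3 of 9 were called (1 higher, 2 lower), which is 33.3% against 28.1% (13.4% higher and 14.7% lower). Both shares lay near the background. The median difference of the relatives was 0 in KD3 and -0.21 in KD4, beside 0.009 and 0.044 over all genes. The comparisons of KD3 and of KD4 share the CTL arrays, and 1 relative, SMC2, was called in the same direction in both, where 15.5% of all genes were. A call rests on the brightest probe, which for SMC2 was chosen through its knock-down values, as given below. Between KD4 and KD3, 0 of 9 relatives were called by limma, where 2.49% of all genes were, and 2 of 9 had an unadjusted p under 0.05, where 19% of all genes had. Against CTL, 3 of 9 relatives had an unadjusted p under 0.05 in KD3 and 6 of 9 in KD4, where 32.6% and 40% of all genes had.

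**Figure D2:**
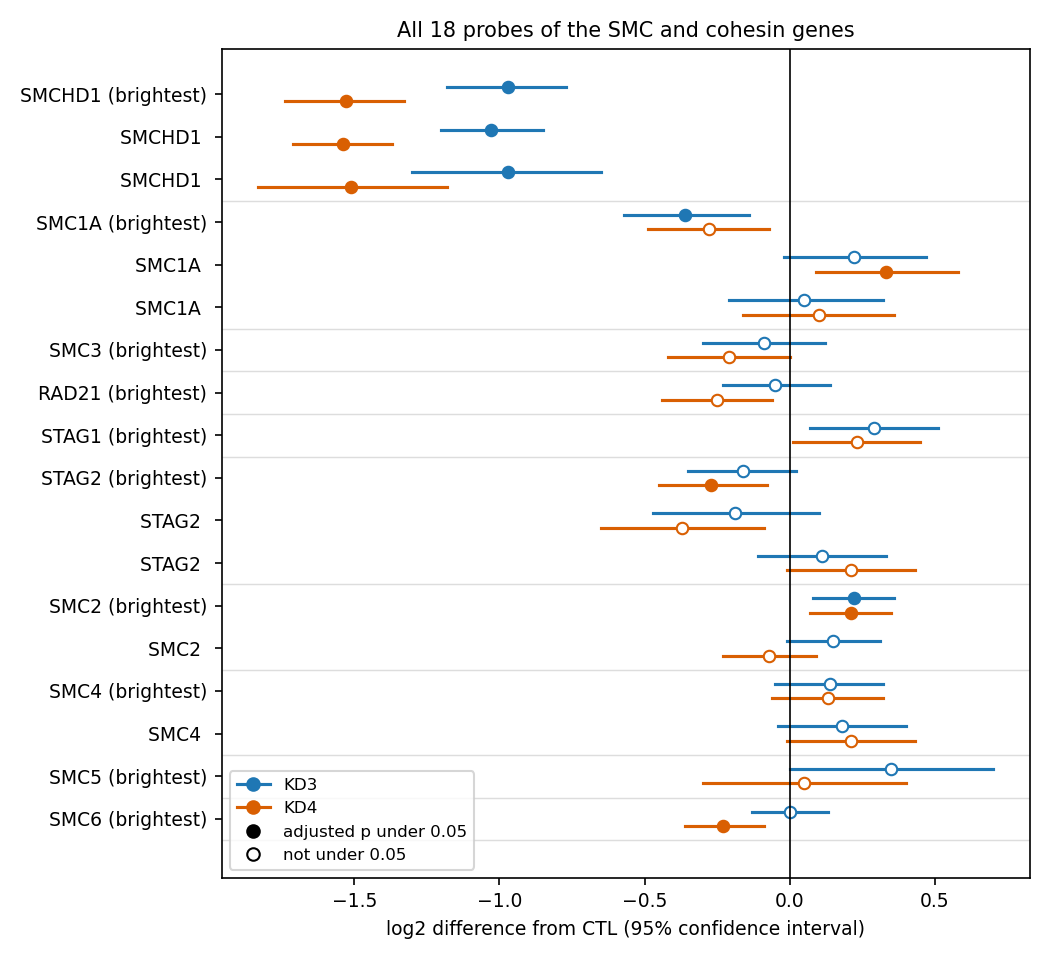
Log2 difference from CTL with its 95% confidence interval for all 18 probes, with KD3 in blue and KD4 in orange and filled points for an adjusted p under 0.05. The SMCHD1 probes lie between -1.54 and -0.97, and every other probe lies between -0.37 and 0.35.

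Among the cohesin ring genes, SMC1A, which is X-linked, was lower in KD3 on its brightest probe, and SMC3 and RAD21 were not called. The SMC1A probe A_33_P3290909 read 13.6, 13.36 and 13.53 in CTL. It read 13.28, 13.08 and 13.05 in KD3. It read 13.26, 13.12 and 13.27 in KD4. Neither knock-down overlapped CTL. The log2 difference was -0.36 in KD3 (interval -0.57 to -0.14, limma adjusted p = 0.029) and -0.28 in KD4 (interval -0.49 to -0.07, limma adjusted p = 0.0554). The KD3 call was lost without KD3 replicate 2 or 3 or CTL replicate 1 or 3, with adjusted p values of 0.0809 to 0.0931. The KD4 difference passed the threshold without KD3 replicate 1 or CTL replicate 2 (adjusted p = 0.0431 and 0.037).

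The other SMC1A probes, annotated with the same accession, did not follow. A_24_P942604 was higher in KD4 by 0.33 (limma adjusted p = 0.0477) and gave 0.22 in KD3 (adjusted p = 0.186). A_33_P3290914 gave 0.05 and 0.1, with overlapping groups. The SMC1A probes moved apart in KD4 (diffSplice adjusted p = 0.027, where 11% of 4538 genes with several probes were called) and gave an adjusted p of 0.0638 in KD3, where 4.01% were called. The mean of the 3 probes differed from CTL by -0.03 in KD3 and 0.05 in KD4, so that no direction is given for SMC1A as a gene.

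SMC3, the partner of SMC1A, read 13.08, 12.73 and 13 in CTL, 12.85, 12.86 and 12.82 in KD3, and 12.73 on all 3 KD4 arrays. CTL replicate 2 lay as low as KD4, so that the groups overlapped. The differences were -0.09 (interval -0.3 to 0.12) and -0.21 (interval -0.42 to 0), with limma adjusted p values of 0.539 and 0.132. Without CTL replicate 2 they were -0.2 (adjusted p = 0.0837) and -0.31, which passed the threshold (adjusted p = 0.0153), and without CTL replicate 1 they were -0.02 and -0.13. RAD21, the subunit that closes the ring and is cleaved at anaphase, read 14.19, 14.34 and 14.35 in CTL, 14.37, 14.23 and 14.13 in KD3, and 14.08, 14.03 and 14.01 in KD4. The KD4 arrays lay below all CTL arrays, with a difference of -0.25 (interval -0.44 to -0.06, limma adjusted p = 0.0502), and it passed the threshold without KD3 replicate 1 or 3 or CTL replicate 1 (adjusted p = 0.0366, 0.0494 and 0.0372). In KD3 the difference was -0.05 (interval -0.23 to 0.14, adjusted p = 0.738).

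STAG1 and STAG2 are alternative subunits of the same position in cohesin. STAG2, which is X-linked, was lower in KD4 on its brightest probe, A_24_P66125. The probe read 12.18, 12.35 and 12.18 in CTL, 12.2, 12 and 12.02 in KD3, and 11.94, 12.01 and 11.96 in KD4. The KD4 arrays did not overlap CTL, whereas the KD3 arrays did. The difference was -0.27 in KD4 (interval -0.45 to -0.08, limma adjusted p = 0.0396) and -0.16 in KD3 (interval -0.35 to 0.02, limma adjusted p = 0.206). The KD4 call was lost when any array other than KD3 replicate 1 was left out, with adjusted p values of 0.0519 to 0.109.

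The second STAG2 probe, A_23_P33856, gave -0.37 in KD4 (limma adjusted p = 0.0539) and -0.19 in KD3. The third, A_33_P3304293, is annotated with another STAG2 transcript accession and gave 0.21 in KD4 (interval -0.01 to 0.43) and 0.11 in KD3. The STAG2 probes moved apart in KD4 (diffSplice adjusted p = 0.0197), where the third probe lay 0.53 above the other probes (adjusted p = 0.00945), and gave an adjusted p of 0.454 in KD3. Across the alternative settings STAG2 ran from -0.3 to -0.14 in KD4. The lower signal in KD4 is given for the probes that showed it and not for STAG2 as a gene. STAG1 read 7.17, 7.08 and 6.99 in CTL, 7.46, 7.38 and 7.28 in KD3, and 7.43, 7.38 and 7.14 in KD4. The KD3 arrays lay above all CTL arrays, and 1 KD4 array lay within the CTL range. The differences were 0.29 (interval 0.07 to 0.51, limma adjusted p = 0.0711) and 0.23 (interval 0.01 to 0.45, limma adjusted p = 0.111). Without KD4 replicate 3 both passed the threshold (0.29 and 0.32, adjusted p = 0.047 and 0.0449).

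**Figure D3:**
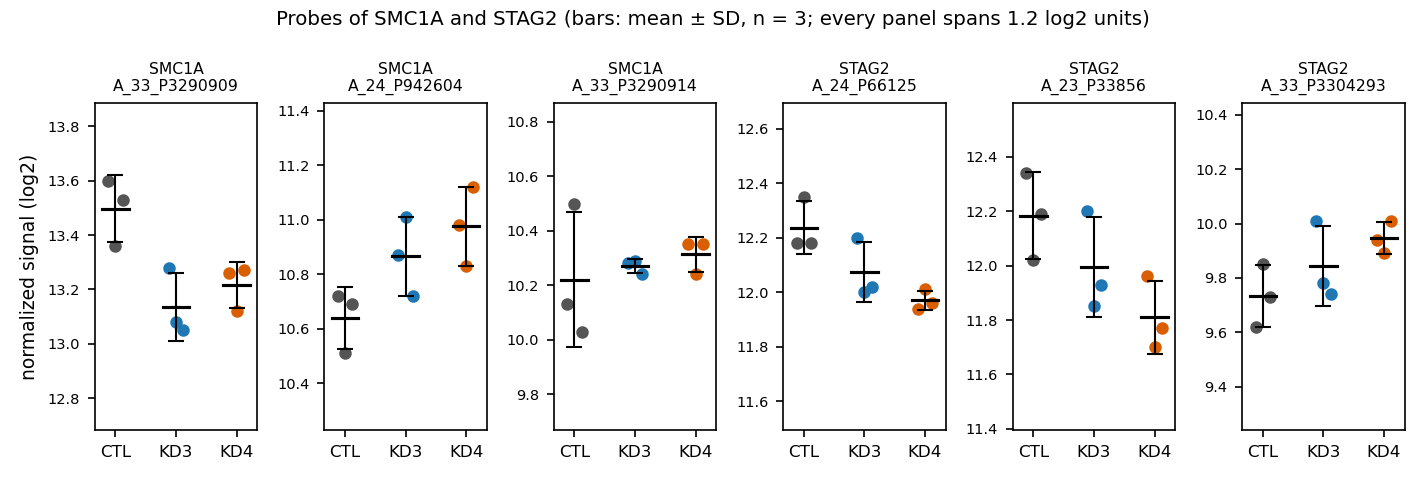
Normalized log2 signal of the 3 probes of SMC1A and the 3 probes of STAG2 on the 9 arrays, with points for arrays and bars for the mean ± SD (n = 3), each panel spanning 1.2 log2 units. The brightest SMC1A probe is lower and A_24_P942604 higher in KD4 than in CTL, and the third STAG2 probe lies on the other side of CTL from the first 2.

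Of the condensin SMC genes, SMC2 was higher in both knock-downs on its brightest probe, and SMC4 was not called. The SMC2 probe A_33_P3378334 read 9.64, 9.63 and 9.57 in CTL. It read 9.86, 9.83 and 9.81 in KD3 and 9.8, 9.88 and 9.8 in KD4. All 6 knock-down arrays lay above all CTL arrays. The difference was 0.22 in KD3 (SE 0.0609, interval 0.08 to 0.36, limma adjusted p = 0.0359) and 0.21 in KD4 (SE 0.0609, interval 0.07 to 0.35, limma adjusted p = 0.0312). The KD3 call was lost when any 1 of the 9 arrays was left out, with adjusted p values of 0.0537 to 0.098. The KD4 call was lost without any 1 of the KD4 replicates, KD3 replicate 2, or CTL replicate 2 or 3.

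The other SMC2 probe, A_33_P3357322, had the same accession and gave 0.15 in KD3 (interval -0.01 to 0.31) and -0.07 in KD4 (interval -0.23 to 0.09). In CTL the 2 probes were about equally bright, with log2 means of 9.63 for A_33_P3357322 and 9.62 for A_33_P3378334. The brightest probe was chosen by its mean over all 9 arrays. For SMC2 this choice rested on the knock-down arrays, so that the SMC2 calls are not independent of it. The 2 probes moved apart in KD4 (diffSplice adjusted p = 0.0411) and gave an adjusted p of 0.769 in KD3. Across the alternative settings SMC2 ran from 0.07 to 0.23 in KD4. No direction in KD4 is given for SMC2 as a gene. SMC4 read 13.87, 13.72 and 13.78 on its brightest probe in CTL, 14.07, 13.87 and 13.84 in KD3, and 13.94, 13.86 and 13.97 in KD4. The groups overlapped, with differences of 0.14 (interval -0.05 to 0.32) and 0.13 (interval -0.06 to 0.32). The other SMC4 probe gave 0.18 and 0.21, also not called.

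In the SMC5/6 complex, SMC6 was lower in KD4. Its probe, the mean of 10 spots on each array, read 10.84, 10.83 and 10.89 in CTL, 10.88, 10.87 and 10.82 in KD3, and 10.61, 10.62 and 10.64 in KD4. The KD4 arrays lay below all other arrays, and KD3 overlapped CTL. The difference from CTL was -0.23 in KD4 (SE 0.0587, interval -0.36 to -0.09, limma adjusted p = 0.0205) and 0 in KD3 (interval -0.13 to 0.13, limma adjusted p = 0.992). Within each slide the KD4 difference was -0.23, on slide 2 from 1 KD4 array and 1 CTL array. The KD4 call was lost without any 1 of the KD4 replicates or without CTL replicate 3, with adjusted p values of 0.0541 to 0.0727. KD4 lay below KD3 by -0.23 (interval -0.36 to -0.1), which did not pass adjustment (limma adjusted p = 0.083). SMC5, the partner of SMC6, read 7.81, 8 and 7.41 in CTL, 8.27, 7.95 and 8.04 in KD3, and 7.87, 7.83 and 7.66 in KD4. The groups overlapped CTL, and the differences were 0.35 (SE 0.153, interval 0 to 0.7, limma adjusted p = 0.154) and 0.05 (interval -0.3 to 0.4, limma adjusted p = 0.832). Leaving out 1 array moved the KD3 difference from 0.18 without CTL replicate 3 to 0.48 without CTL replicate 2, with no call.

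The factors that work with these complexes were described from 5 lists, which hold 36 genes. Of these 35 were tested, all but the meiotic cohesin gene SMC1B, which was not well above background. In KD3, 8 were called (5 higher, 3 lower), which is 22.9% against 19.9% of all genes, and in KD4 9 were called (5 higher, 4 lower), 25.7% against 28.1%. The median difference was 0.06 in KD3 and 0.12 in KD4. In both knock-downs 5 of 35 were called in the same direction, 14.3% against 15.5% of all genes. These shares lay near the background.

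HDAC8, the X-linked deacetylase of SMC3, rose most among the 35 factors. Its brightest probe read 10.02, 10.05 and 9.84 in CTL, 10.68, 10.51 and 10.73 in KD3, and 10.89, 10.9 and 10.84 in KD4. The 3 groups did not overlap. The difference was 0.67 in KD3 (SE 0.0855, interval 0.48 to 0.86, limma adjusted p = 0.00112) and 0.9 in KD4 (SE 0.0855, interval 0.71 to 1.1, limma adjusted p = 0.000194). HDAC8 was the only one of the 35 called with at least 1.8-fold, in KD4. This was 1 of 35 in KD4 and 0 of 35 in KD3, where 4.59% and 3.35% of all genes were called. The other 3 HDAC8 probes gave 0.2, 0.62 and 0.52 in KD3 and 0.43, 0.85 and 0.83 in KD4, of which the 0.2 was not called.

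Among the other loading and release factors, MAU2, the partner of the cohesin loader NIPBL, was lower by -0.28 in KD3 and -0.33 in KD4 (limma adjusted p = 0.0154 and 0.00618), and the KD3 call was lost without KD3 replicate 2 (adjusted p = 0.0601). NIPBL itself was not called (0.04 and 0.06). Of the condensin subunits other than SMC2 and SMC4, 2 of 6 were called in KD3 and 1 of 6 in KD4, which is 33.3% and 16.7% against 19.9% and 28.1% of all genes. NCAPG, a subunit of condensin I, was higher by 0.46 and 0.48 (limma adjusted p = 0.0103 and 0.00624). Some dimmer condensin probes were called lower. The second NCAPD2 probe gave -0.43 and -0.29 (limma adjusted p = 0.00504 and 0.0216). The NCAPH2 probe A_33_P3272558 gave -0.35 in KD4 (limma adjusted p = 0.014) and was not called in KD3. In CTL its log2 mean was 14.44, beside 14.42 for the NCAPH2 probe used as brightest, which gave -0.18 in KD4 (limma adjusted p = 0.0621). The third NCAPH2 probe was not called. The meiotic cohesin subunit REC8 was higher by 0.48 and 0.51 (limma adjusted p = 0.0244 and 0.0141). The REC8 call in KD3 was lost without KD3 replicate 1 or 3 or CTL replicate 1 or 3, and that in KD4 without KD4 replicate 3. With normexp background correction the REC8 difference in KD4 was 0.27 (adjusted p = 0.0518). None of the 7 other subunits and partners of SMC5/6 was called by limma in either knock-down, where 19.9% and 28.1% of all genes were. In each, 1 of 7 had an unadjusted p under 0.05, where 32.6% and 40% of all genes had.

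Of LRIF1, which binds SmcHD1, and the 4 MORC genes, which share the GHKL-type ATPase domain, MORC4 on the X chromosome was lower in both. Its probe read 13.01, 13.11 and 13.25 in CTL, 12.74, 12.78 and 12.72 in KD3, and 12.6, 12.65 and 12.61 in KD4. The 3 groups did not overlap, and the differences were -0.38 and -0.51 (limma adjusted p = 0.00838 and 0.00162). LRIF1 was the only factor of the 35 called between KD4 and KD3, and it is named for that reason after its values were seen. This is 2.86% against 2.49% of all genes, a share near the background. It read 8.68, 8.49 and 8.77 in CTL, 8.92, 8.73 and 8.75 in KD3, and 9.55, 9.32 and 9.37 in KD4. The KD4 arrays lay above all others, with 0.77 over CTL (interval 0.54 to 0.99, limma adjusted p = 0.000941), while KD3 overlapped CTL with 0.15 (interval -0.08 to 0.38, limma adjusted p = 0.336).

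**Figure D4:**
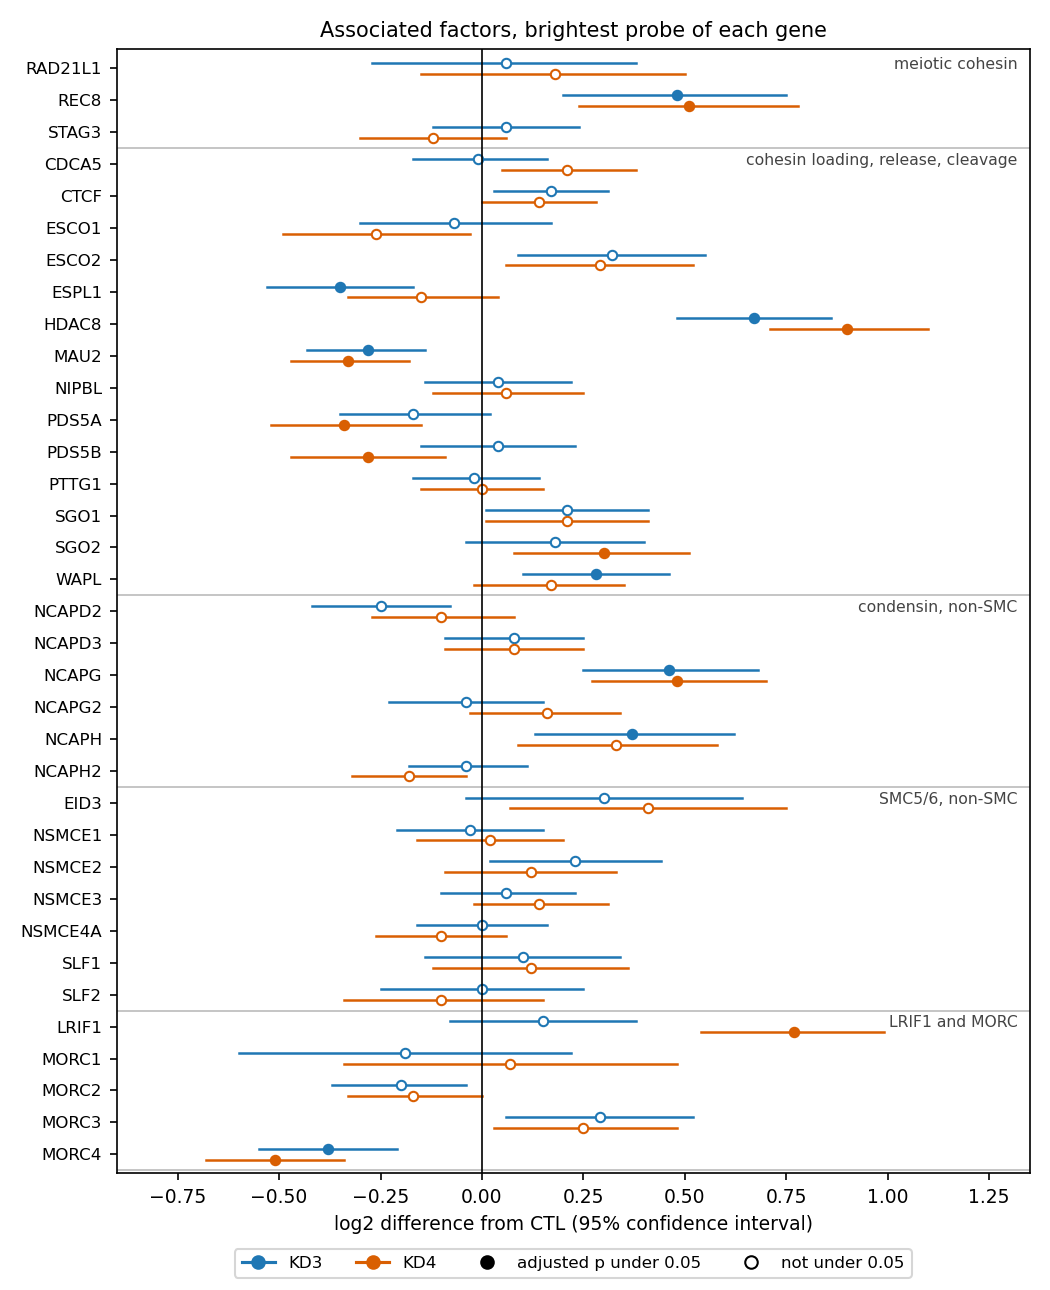
Log2 difference from CTL with its 95% confidence interval for the brightest probe of the 35 associated factors tested, by list, with KD3 in blue and KD4 in orange and filled points for an adjusted p under 0.05. HDAC8 lies farthest from 0, and LRIF1 is filled in KD4 only.

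Many SMC genes are transcribed with the cell cycle, so cell cycle genes were read beside them. Of 22, 2 were called in KD3 (9.09%, both lower) and 5 in KD4 (22.7%, 1 higher and 4 lower), both shares below the 19.9% and 28.1% of all genes. The replication clamp PCNA was lower by -0.36 and -0.42 (limma adjusted p = 0.00428 and 0.00152), and the helicase subunit MCM3 by -0.22 and -0.24 (limma adjusted p = 0.035 and 0.0186). The MCM3 call in KD3 was lost when any 1 of the 9 arrays was left out, and that in KD4 without KD4 replicate 2 or 3. Their part in the values of the SMC genes was not tested.

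The genes most like SMCHD1 across the 9 arrays were found by Pearson r with its brightest probe, among 3447 named genes whose group means spanned at least 0.5 on the log2 scale. They were SPINK4 (r = 0.9954), MGAT3 (r = 0.9951), ACP3 (r = 0.9939), GINM1 (r = 0.9929) and SLCO3A1 (r = 0.9927). In all 5 the mean signal was highest in CTL and lowest in KD4, an order that follows from the choice by r. No relative could be among them, because the group means of none spanned 0.5. The points share arrays and groups, so that r is a description.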

How the data were processed

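The authors deposited a scanner file for each of 9 one-color arrays (KD3, KD4 and CTL, 3 each), holding background-subtracted spot intensity values written by Agilent Feature Extraction 10.10.1.1. They also deposited a table of log2 values normalized in GeneSpring, used as an alternative. Here, control spots and outlier spots were left out (260 to 634 of 58717 per array), and quantile normalization of the log2 processed signals used limma 3.58.1 (R 4.3.3). Replicate spots were averaged per probe, and 21 of 42405 probes lacking a value were dropped. Accessions named 25422 probes through a gene table of GRCh38, whereas the array design uses an earlier build (hg19), so no coordinates are given. Probes well above background on all arrays of at least 1 group were tested (32276 probes, 26862 genes). The gene's value was that of its brightest probe, by the mean over all 9 arrays.

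Groups were compared with lmFit and eBayes over all 9 arrays, with Benjamini-Hochberg adjustment over all tested probes. Probes of a gene moving apart were tested with diffSplice over 4538 genes, and within-slide differences were computed, both added after values were seen. The fit was tested on simulated data. Alternatives were 75th percentile scaling, normexp background correction (offset 50), the authors' log2 table, the methods' t-test (adjusted or not), no filter on dim probes or a stricter one, only the groups compared, the replicate number or slide as a block, at least 1.8-fold, the mean of a gene's probes, and leaving out each array. Named factors were those called in the same direction in both knock-downs, up to 3 per list and direction. The members and lists were chosen with earlier results of these data known.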

Additional observations from a re-analysis of the deposited data

Results flagged for a closer look

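The difference between KD4 and KD3 passed adjustment by limma for 2 of the genes described. These were the targeted gene and 1 of the 35 associated factors, beside 2.49% of all genes. For SMCHD1 it was -0.56 on the log2 scale (adjusted p = 0.0195), with KD4 lower on all 3 arrays than KD3. For LRIF1 it was 0.61 (adjusted p = 0.0211), with KD4 higher on all 3 arrays than KD3. The LRIF1 difference stayed past the threshold in 14 of 21 alternatives and was lost with the adjusted methods' t-test (adjusted p = 0.166) and with the 1.8-fold threshold. It was also lost without KD3 replicate 2 or 3 or any 1 of the KD4 replicates, with differences of 0.55 to 0.66 and adjusted p values of 0.0559 to 0.0817. Groups of 3 arrays are too small for a check of single outlying arrays.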

How the results depend on the processing

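The SMCHD1 differences kept their direction and stayed past the threshold in all 21 alternatives, between -1.02 and -0.9 in KD3 and between -1.56 and -1.44 in KD4. The KD4 to KD3 difference of SMCHD1 stayed at -0.56 but lost its call with the adjusted methods' t-test (adjusted p = 0.184) and with the 1.8-fold threshold, and ran from -0.63 to -0.51 when 1 array was left out. Relatives called in KD3 numbered 2, and 1 with 75th percentile scaling, the slide as a block or the mean of a gene's probes, 0 with the adjusted t-test, only the groups compared or 1.8-fold, 3 with the unadjusted t-test, and 0 to 2 when 1 array was left out. In KD4 they numbered 3, and 5 with the stricter filter or the unadjusted t-test, 1 with the adjusted t-test, 0 with 1.8-fold, and 0 to 5 when 1 array was left out. Between KD4 and KD3 the unadjusted t-test gave 2, where it called 15.3% of all genes. Leaving out 1 array gave 13.9% to 18% of all genes called in KD3 and 19.9% to 28.4% in KD4. Associated factors numbered 8 in KD3, and 0 with the adjusted t-test or 1.8-fold, 11 with normexp or the unadjusted t-test and 5 to 8 when 1 array was left out, and 9 in KD4, and 2 with the adjusted t-test, 15 with the unadjusted, 1 with 1.8-fold and 5 to 10 when 1 array was left out. Over all genes the adjusted t-test called 449 in KD3, 1643 in KD4 and 0 between KD4 and KD3, against 5353, 7559 and 668. In KD3 and KD4 this was 1.67% and 6.12%. Shares of all genes were 23.1% and 29.9% with the unadjusted t-test, 21.4% and 29.9% with the stricter filter, and 20.2% and 28.9% with normexp. They were 18.9% and 27.5% with 75th percentile scaling, and 17.2% and 27.1% with the slide as a block. The mean of a gene's probes gave 20.3% and 28.2%, and only the groups compared 14.4% and 25%. Between KD4 and KD3, 266 of all genes were called higher and 402 lower, and 379 and 282 with 75th percentile scaling.

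None of the values whose direction turned was called. RAD21 in KD3 was 0.01 with 75th percentile scaling or without KD3 replicate 3. SMC6 in KD3 was -0.01 with normexp or without KD3 replicate 1 or 2 or CTL replicate 2, and 0 without CTL replicate 1, and ran from -0.01 to 0.02 when 1 array was left out. SMC5 in KD4 was -0.01 with normexp and -0.11 without CTL replicate 3, and ran from -0.11 to 0.18 when 1 array was left out. SMC1A in KD4 was 0.05 as the mean of its probes. The cause was not tested.

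Deviations from the group means correlated between -0.078 and 0.143 for same-numbered arrays of different groups, and between -0.139 and 0.139 for arrays with different numbers. These ranges cannot exclude a pairing by replicate number, and the main fit used none. All replicate 1 arrays lay on slide 2 and all replicate 2 arrays on slide 1. With the replicate block, relatives called were 1 in KD4 and associated factors 5 in KD3, where 25.1% and 16.4% of all genes were called. The KD4 to KD3 difference of SMCHD1 was then -0.56 (limma adjusted p = 0.0692). The block also ended the REC8 call in KD3 (adjusted p = 0.0547). SMC2 lost its call in 15 alternatives in KD3 and 12 in KD4, STAG2 in 16 and SMC6 in 6 in KD4, and SMC1A in 8 in KD3. Calls were gained by RAD21 in 7 alternatives, SMC1A in 6, and SMC3 and STAG1 in 1 each in KD4, and by STAG1 in 3 in KD3.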
